A study of Brassica rapa with 12 samples.

Results

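The genes described here were lower in heated than in unheated wild-type Brassica rapa, and not lower to the same extent in plants edited in GIGANTEA. They were chosen from the measured values themselves. Levels are given in CPM, read counts divided by a library size that TMM factors correct so as to line up most genes between libraries. The rule asked for a Chiifu mean at 22 °C of at least 5 CPM and at least 4 times the mean at 37 °C, with the highest Chiifu library at 37 °C below the lowest at 22 °C. It also asked for a gi mean at 37 °C of at least 0.67 times that at 22 °C, and left out a stretch of chromosome A03, BraA03g049360.3.5C to BraA03g054150.3.5C. Of 47249 gene IDs listed, 28846 had enough counts to be tested and 47 met the rule. Another 10 genes met it inside the stretch left out, which holds 296 tested genes.

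Plants of 2 genotypes were sequenced at 2 temperatures, with 3 libraries in each of 4 groups. The groups were gi at 37 °C, gi at 22 °C, Chiifu at 37 °C and Chiifu at 22 °C. Chiifu is a Chinese cabbage cultivar and served as the wild type, labelled as flowering early, and gi plants were GIGANTEA-edited in the Chiifu background and labelled as flowering late. All plants were 2 weeks old and grown on MS medium alone. The 37 °C plants had 1 h of heat and the 22 °C plants had none. The edited allele, the number of edited lines and the number of plants behind a library are unstated in the labels. RNA came from whole seedlings, so that fewer cells of a type and less RNA per cell cannot be told apart.

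In plants, a sudden rise to a damaging temperature switches on heat shock transcription factors and the chaperones they control, while the transcripts of many growth and metabolic genes decline. GIGANTEA is a large plant protein that works in the circadian clock and in the control of flowering by day length, where it acts with the blue-light receptor and ubiquitin ligase subunit FKF1. The files give gene IDs without names, and 0 of the 47249 IDs matched the 51589 genes of the reference table, so the 47 genes are described by ID and no function is assigned. The same limit kept the edited gene from being checked in the libraries.

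Totals in genes ran from 36778289 to 57777477 counts per library, which puts 3 counts, the floor used here for detection, at 0.0377 to 0.0964 CPM. This floor allows for counting error alone, and reads lacking molecular identifiers may repeat 1 molecule, so 3 counts may stand for fewer molecules. Replicate 1 of Chiifu at 22 °C stood apart from both other libraries of its group, with a chi-square per degree of freedom of 416 and 372 against them, while those others differed by 80.0. Replicate 1 also stood apart in both gi groups, with 69.5 and 84.4 against 17.5 between the others at 37 °C, and 123 and 142 against 46.1 at 22 °C. Replicate 1 of gi at 37 °C had the lowest TMM factor of its group, 0.673, against 0.864 and 0.910 in replicates 2 and 3. The 100 most abundant genes took 36.2% of its counts, against 32.6% and 31.8%. Nothing in the labels says that replicates were grown separately, so tests measure the spread between these libraries, which may be technical.

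The 47 genes are the end of a wide distribution and not a separate class. The Chiifu part of the rule was met by 565 genes, of which 47, or 8.32%, also met the gi bound and 518 fell below it. One of the 518 was at or under the floor in both gi groups and has no gi ratio. Among the other 564 genes, gi plants had at least 4-fold less at 37 than at 22 °C for 241 genes and at least 2-fold less for 474, and 43 genes had a gi ratio between 0.5 and 0.67. The median log2 ratio of mean CPM, 37 over 22 °C, was -0.12 in gi for the 47 genes, with a range of -0.57 to 1.44, and -1.94 for the other genes with a gi ratio. The value of 1.44 was that of BraA05g018390.3.5C, barely detected in gi, with its mean at 22 °C set to the floor. The next highest was 0.82, in BraA09g066320.3.5C. In Chiifu the same ratio had a median of -2.37 for the 47 genes, with a range of -6.81 to -2.004, and -2.56 for the 518. Over all genes tested the median was -0.07 in gi and -0.10 in Chiifu. With the genotypes exchanged in every criterion, 38 of 480 genes, or 7.92%, met the rule, so genes lowered in gi and not in Chiifu by the same bounds were about as frequent.

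**Figure D1:**
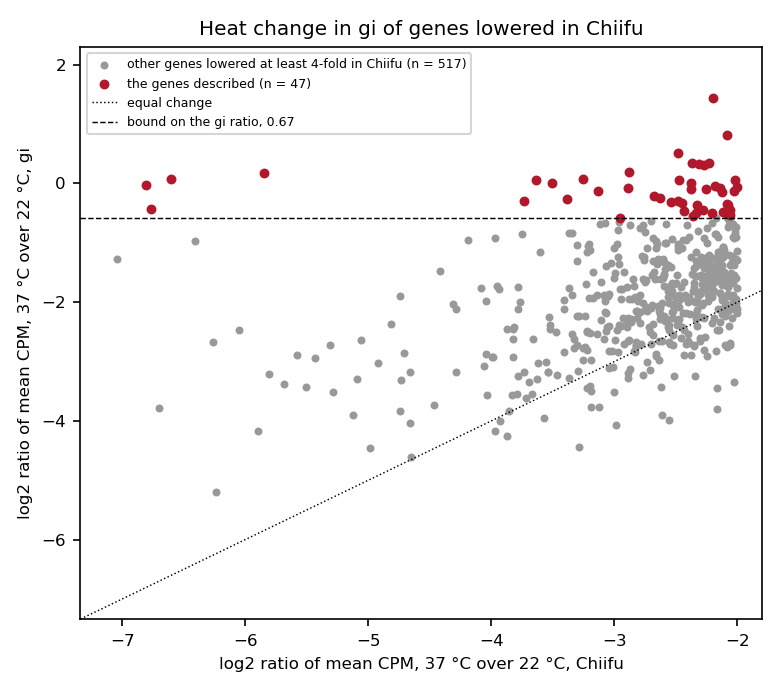
Log2 ratio of mean CPM at 37 over 22 °C in gi (vertical axis) and in Chiifu (horizontal axis) for the genes lowered at least 4-fold in Chiifu, 1 point a gene. The 47 genes lie above the dashed line, the bound of 0.67 on the gi ratio, and the other genes lie below it without a gap between them; 1 gene at or under the floor in both gi groups is not drawn.

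The bounds separate genes with nearly equal values. BraA04g031840.3.5C, just inside the 4-fold bound, had a Chiifu mean 4.01 times higher at 22 than at 37 °C, and BraA05g010300.3.5C, just outside, 3.97 times. BraA03g043330.3.5C, just inside the gi bound, had a gi ratio of 0.672, and BraA03g016920.3.5C, just outside, 0.667. The Chiifu fold was under 5 in 20 of the 47 genes, at least 8 in 10 and at least 16 in 4. In gi, the mean was higher at 37 than at 22 °C for 16 genes and lower for 31.

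Added together, the 47 genes took 368 ± 67.03 CPM in heated gi, 403 ± 164 CPM in unheated gi, 150 ± 37.0 in Chiifu at 37 °C and 825 ± 190 in Chiifu at 22 °C (SD, n = 3 each). The sums were 299, 372 and 433 CPM in gi at 37 °C and 303, 314 and 592 CPM in gi at 22 °C. They were 122, 137 and 192 CPM in Chiifu at 37 °C and 1043, 695 and 738 CPM in Chiifu at 22 °C. All 6 gi sums thus lay between the heated and the unheated Chiifu sums, at either temperature. The median gene had a mean of 5.48 CPM in heated gi, 5.62 in unheated gi, 1.71 in heated Chiifu and 10.4 in unheated Chiifu.

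**Figure D2:**
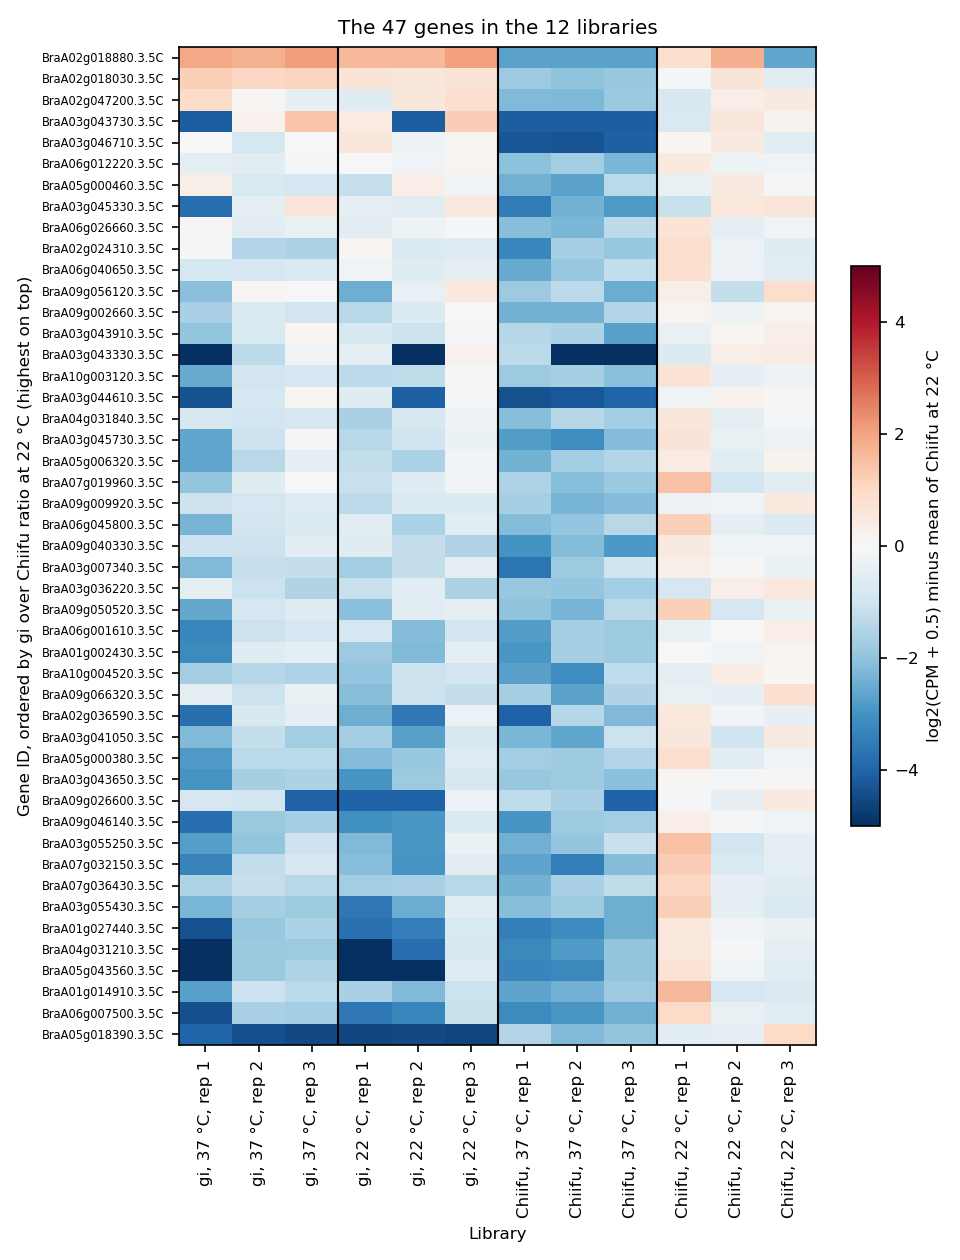
Expression of the 47 genes (rows, ordered by the gi over Chiifu ratio at 22 °C) in the 12 libraries (columns, by group), as log2(CPM + 0.5) minus the mean of Chiifu at 22 °C. In the upper rows gi is near unheated Chiifu in most gi libraries, and in the lower rows it is below unheated Chiifu at both temperatures, except in single gi libraries.

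That these genes were lowered by heat in wild type alone was not shown gene by gene. In the edgeR quasi-likelihood fit, with p-values adjusted by Benjamini-Hochberg over all genes tested and called under 0.05, 38 of the 47 were called lower at 37 than at 22 °C in Chiifu, where 16.5% of tested genes were called lower. In gi none was called lower, where 14.2% of tested genes were, and none higher, where 16.2% were. At an unadjusted p under 0.05 the gi counts were 0 lower, against 20.8% of tested genes, and 1 higher, against 20.7%, and DESeq2 called 0 in either direction. The interaction, which compares the heat change of gi with that of Chiifu, was called higher for 3 genes, with a background of 0.0693%. At an unadjusted p under 0.05 it was passed by 29 genes, all higher, against 4.88% of tested genes. For DESeq2, and for the fit with the replicate number as a block, no share of all tested genes was computed, so their counts have no background. DESeq2 called 14 interactions, and the block fit called 1. The interaction count was also 1 without any single gi library or without replicate 1 or 3 of heated Chiifu, and BraA03g046710.3.5C kept its call in every alternative run. The 38 became 20 to 23 without replicate 1 or 2 of heated Chiifu or replicate 1 of unheated Chiifu. Because the rule used all 4 groups, these counts describe the genes chosen and support nothing further.

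The heat change in gi was measured less precisely for the 47 genes than for the other 518. The median standard error of its log2 value was 0.66 for the 47 and 0.46 for the 518. The 95% interval of the gi log2 change reached -2, a 4-fold fall, in 17 of the 47 genes and included -1 in 37. It lay wholly above -1 in 10 genes. The interval of the interaction included 0 in 18 genes. For those 37 genes a 2-fold fall in gi thus lay within the error.

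The clearest contrast was in BraA03g046710.3.5C. It had 10.9, 5.66 and 10.99 CPM in gi at 37 °C and 16.3, 8.93 and 12.01 CPM in gi at 22 °C. It had 0.0870, 0.0614 and 0.161 CPM in Chiifu at 37 °C and 11.5, 14.8 and 7.37 CPM in Chiifu at 22 °C. The 3 heated Chiifu libraries were far below every other library, and the gi libraries at the 2 temperatures overlapped. The log2 heat change was -0.43 ± 0.35 (SE) in gi and -6.75 ± 0.50 in Chiifu. The interaction was 6.31 ± 0.60 on the log2 scale.

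BraA02g018030.3.5C had the narrowest gi groups among the called genes. It had 11.6, 10.3 and 11.04 CPM in gi at 37 °C and 7.70, 7.35 and 7.95 CPM in gi at 22 °C. It had 0.986, 0.829 and 0.931 CPM in Chiifu at 37 °C and 4.42, 7.87 and 3.10 CPM in Chiifu at 22 °C. All 3 heated gi libraries were above all 3 unheated ones, and in Chiifu the order was the opposite. The log2 heat change was 0.52 ± 0.28 in gi, which the test did not call, and -2.48 ± 0.31 in Chiifu.

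BraA09g040330.3.5C was the third gene with a called interaction. It had 8.20, 8.21 and 12.2 CPM in gi at 37 °C, 11.5, 7.63 and 5.89 CPM in gi at 22 °C, 1.83, 3.59 and 2.02 CPM in Chiifu at 37 °C and 24.6, 15.1 and 15.2 CPM in Chiifu at 22 °C. The gi libraries overlapped between temperatures and lay between the 2 Chiifu groups. Its log2 heat change was 0.20 ± 0.33 in gi and -2.88 ± 0.36 in Chiifu. With the replicate block its interaction, and that of BraA02g018030.3.5C, were not called. The edgeR interaction of BraA09g040330.3.5C, at an adjusted p of 0.0498, also lost its call with DESeq2 size factors in place of TMM, at 0.0568.

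BraA09g066320.3.5C was the other gene whose gi libraries did not overlap between temperatures and were higher in heat, 2 of 47 against 25.5% of tested genes. It had 13.4, 8.87 and 14.9 CPM in gi at 37 °C, 4.01, 8.84 and 8.20 CPM in gi at 22 °C, 5.66, 2.55 and 6.52 CPM in Chiifu at 37 °C and 14.7, 14.1 and 33.7 CPM in Chiifu at 22 °C. The nearest gi libraries, 8.87 and 8.84 CPM, were almost equal, and the interaction of 2.91 ± 0.64 was not called. One gene, BraA06g040650.3.5C, had heated gi libraries wholly below unheated ones, against 27.3% of tested genes and 434 of the 518. It had 6.25, 6.33 and 6.81 CPM in gi at 37 °C and 10.4, 7.63 and 8.51 CPM in gi at 22 °C.

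**Figure D3:**
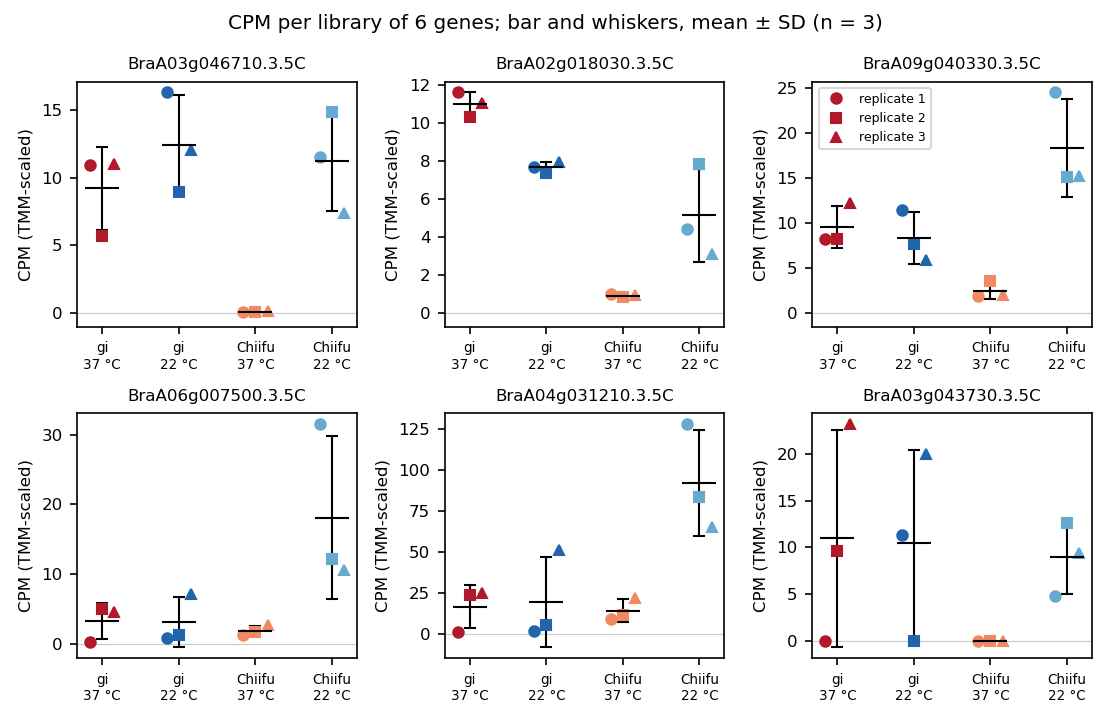
CPM in each library (points, shaped by replicate number) of 6 of the 47 genes, with the mean (bar) and SD (whiskers, n = 3) of each group; each panel has its own linear axis. In BraA03g046710.3.5C, BraA02g018030.3.5C and BraA09g040330.3.5C the gi replicates lie together and above heated Chiifu, and in BraA06g007500.3.5C, BraA04g031210.3.5C and BraA03g043730.3.5C single gi libraries lie far from the others.

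A small heat ratio in gi can stand nearer to the unheated or to the heated level of Chiifu, and the 47 genes held both in about equal number. On the log scale, the gi mean at both temperatures was nearer to unheated than to heated Chiifu for 20 genes and nearer to heated than to unheated Chiifu for 22. For 3 genes it was nearer to unheated Chiifu at 22 °C and to heated Chiifu at 37 °C, and for 2 the other way round. The cut was the midpoint between the 2 Chiifu means on the log scale, so genes at intermediate levels were also assigned to a side. BraA04g031840.3.5C, among the 20, had a mean of 4.25 CPM in gi at 37 °C, against 2.12 in heated and 8.51 in unheated Chiifu. The gi mean at 37 °C was over 2 times the Chiifu mean at 37 °C for 26 genes, or 55.3%, against 20.3% of the 518 and 9.65% of tested genes. The gi mean at 22 °C was under 0.5 times the Chiifu mean at 22 °C for 28 genes, or 59.6%, against 18.9% of the 518 and 10.8% of tested genes. The median log2 ratio of mean CPM, gi over Chiifu, was 1.07 at 37 °C and -1.14 at 22 °C for the 47 genes, and 0.38 and -0.22 for the 518.

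By the same fit, gi was called higher than Chiifu at 37 °C for 8 of the 47 genes, with a background of 1.29%, and for 27 of the 518. With the replicate block the count was 5, without a share of all tested genes computed for that fit. All 8 were among the 20 genes near unheated Chiifu at both temperatures, a class that was itself set in part by the gi level at 37 °C. They were BraA02g018030.3.5C, BraA02g018880.3.5C, BraA02g047200.3.5C, BraA03g046710.3.5C, BraA06g012220.3.5C, BraA06g026660.3.5C, BraA09g009920.3.5C and BraA09g040330.3.5C. Leaving out any 1 heated library of either genotype, or replicate 2 or 3 of unheated gi, took the count to between 3 and 5, the lowest without replicate 1 of heated Chiifu. At 37 °C the gi libraries lay wholly above the Chiifu libraries for 14 genes, or 29.8%, against 15.3% of tested genes and 27.4% of the 518. At 22 °C edgeR called no gene higher in gi, with a background of 0.451%. None was higher at an unadjusted p under 0.05, against 7.14% of tested genes, and none by DESeq2. It called 1 gene lower at 22 °C, with a background of 0.562%, and DESeq2 called 6, with no background computed. The gi libraries lay wholly below the Chiifu libraries at 22 °C for 17 genes, or 36.2%, against 10.7% of tested genes and 15.4% of the 518. The rule fixed the heat ratio within each genotype, so the levels of the genotypes at 1 temperature follow from it in part, and these counts are a description.

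**Figure D4:**
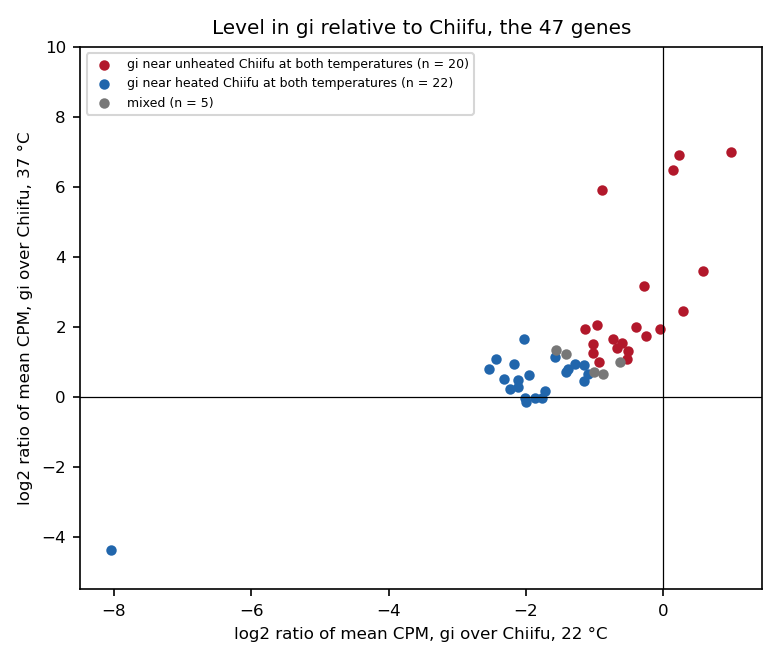
Log2 ratio of mean CPM, gi over Chiifu, at 37 °C (vertical axis) and at 22 °C (horizontal axis) for the 47 genes, coloured by the heated or unheated Chiifu mean to which gi was nearer at both temperatures. Means under the floor were set to it. The mean of gi was above that of Chiifu at 22 °C for 5 genes and below that of Chiifu at 37 °C for 5, and BraA05g018390.3.5C lies alone at the lower left.

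Among the genes near unheated Chiifu, BraA02g018880.3.5C had no counts in heated Chiifu. It had 11.7, 10.5 and 13.0 CPM in gi at 37 °C and 9.30, 9.37 and 12.6 CPM in gi at 22 °C. In Chiifu it had 0, 0 and 0 CPM at 37 °C and 5.02, 10.8 and 0.0251 CPM at 22 °C, the last from 2 counts. Against a floor of 3 counts per library, gi had at least 128-fold more than Chiifu at 37 °C. An unheated Chiifu library was thus also nearly without counts, while the 6 gi libraries all had the transcript.

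BraA02g047200.3.5C was abundant in gi. It had 66.5, 36.6 and 26.4 CPM in gi at 37 °C, 23.4, 52.1 and 63.1 CPM in gi at 22 °C, 7.25, 6.97 and 9.54 CPM in Chiifu at 37 °C and 20.3, 44.2 and 49.1 CPM in Chiifu at 22 °C. Heated gi lay wholly above heated Chiifu, by 2.45 ± 0.47 on the log2 scale, and unheated gi and Chiifu overlapped. BraA06g012220.3.5C had 5.86, 5.38 and 7.87 CPM in gi at 37 °C, 8.28, 7.18 and 8.998 CPM in gi at 22 °C, 1.62, 2.12 and 1.28 CPM in Chiifu at 37 °C and 11.6, 6.78 and 6.98 CPM in Chiifu at 22 °C. Heated Chiifu was the only group that stood apart in this gene.

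The genes near heated Chiifu include the most abundant of the 47. BraA04g031210.3.5C had 1.59, 23.9 and 24.95 CPM in gi at 37 °C, 1.70, 5.82 and 51.2 CPM in gi at 22 °C, 8.99, 11.98 and 22.3 CPM in Chiifu at 37 °C and 128, 83.5 and 65.3 CPM in Chiifu at 22 °C. Every gi library was below every unheated Chiifu library, but the gi libraries of 1 temperature spanned over 10-fold. The log2 heat change in gi was -0.22 with a standard error of 1.09. BraA06g045800.3.5C, the next most abundant in unheated Chiifu, had 8.46, 23.8 and 27.1 CPM in gi at 37 °C, 30.5, 14.7 and 30.4 CPM in gi at 22 °C, 9.49, 11.5 and 17.1 CPM in Chiifu at 37 °C and 102, 31.9 and 27.7 CPM in Chiifu at 22 °C. Unheated gi and unheated Chiifu overlapped in it, and replicate 1 of unheated Chiifu was far above replicates 2 and 3.

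BraA06g007500.3.5C and BraA05g018390.3.5C had the lowest gi over Chiifu ratios at 22 °C. BraA06g007500.3.5C had 0.283, 4.94 and 4.55 CPM in gi at 37 °C, 0.887, 1.21 and 7.22 CPM in gi at 22 °C, 1.31, 1.72 and 2.67 CPM in Chiifu at 37 °C and 31.5, 12.2 and 10.6 CPM in Chiifu at 22 °C. Every gi library was below every unheated Chiifu library. BraA05g018390.3.5C had 0.283, 0.0944 and 0.0492 CPM in gi at 37 °C, 0.0355, 0.0513 and 0.0174 CPM in gi at 22 °C, 4.03, 2.21 and 2.70 CPM in Chiifu at 37 °C and 7.94, 8.89 and 24.3 CPM in Chiifu at 22 °C. It was barely detected in gi at either temperature, and its gi heat ratio rests on 11, 3 and 2 counts at 37 °C and 2, 3 and 1 counts at 22 °C. It was among the genes nearer to heated than to unheated Chiifu, yet all its gi libraries lay far below all heated Chiifu libraries. It was the gene called lower in gi than in Chiifu at 22 °C, by a log2 difference of -8.52 ± 0.78, and also the 1 gene called lower at 37 °C, at -4.36 ± 0.66, with a background of 1.40% at 37 °C.

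Single gi libraries set much of the gi means. The median ratio of the highest to the lowest library was 4.34 in heated gi and 2.88 in unheated gi for the 47 genes. For the 518 it was 1.81 and 1.78, and over tested genes 1.43 and 1.46. In Chiifu the same ratios for the 47 genes were 2.50 at 37 °C and 2.38 at 22 °C. Within gi the spread was larger in the 22 genes near heated Chiifu, 5.88 at 37 °C and 6.04 at 22 °C, than in the 20 near unheated Chiifu, 2.39 and 2.07.

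The same libraries were extreme in most genes. Replicate 1 was the lowest of the gi libraries at 37 °C for 34 of the 47 genes, or 72.3%, against 57.9% of the 518 and 39.1% of tested genes. It was under 0.5 times both others for 26 genes, or 55.3%, against 22.2% and 12.3%. Replicate 3 was the highest of the gi libraries at 22 °C for 37 genes, or 78.7%, against 30.1% of the 518 and 33.7% of tested genes. It was over 2 times both others for 16 genes, or 34.0%, against 6.37% and 7.05%. Both held together in 30 genes, or 63.8%, against 25.1% and 19.0%. A low heated or a high unheated gi library lowers the gi heat ratio, and so works against meeting the gi bound. Without gi replicate 1 at 37 °C, 67 genes met the rule, 45 of the 47 among them. Without gi replicate 3 at 22 °C, 76 genes did, 46 of the 47 among them. Without gi replicate 1 at 22 °C, 45 genes did, with 33 of the 47 among them. Without gi replicate 3 at 37 °C, 30 genes met it and 26 of the 47 remained. The part of these libraries' depth or composition in the pattern was not tested.

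**Figure D5:**
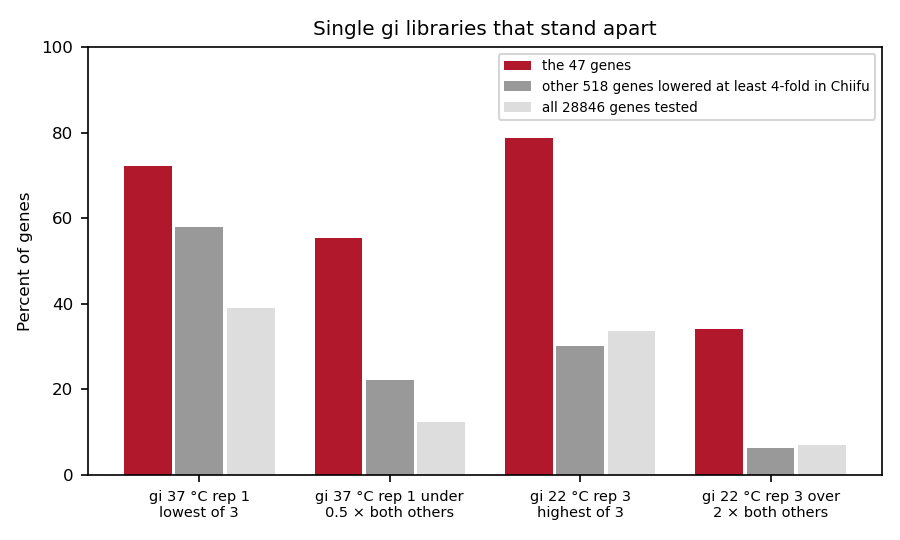
Percent of genes (vertical axis) in which replicate 1 of gi at 37 °C was the lowest of its 3 libraries or under 0.5 times both others, and in which replicate 3 of gi at 22 °C was the highest or over 2 times both others. Bars stand for the 47 genes, the other 518 genes lowered at least 4-fold in Chiifu and all 28846 genes tested; the bars of the 47 genes are the tallest in all 4 sets.

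BraA05g043560.3.5C, picked after its values were seen, is an example. It had 0.309, 13.4 and 16.6 CPM in gi at 37 °C and 0.0710, 0.753 and 31.2 CPM in gi at 22 °C. It had 4.53, 4.88 and 12.1 CPM in Chiifu at 37 °C and 83.0, 42.7 and 34.4 CPM in Chiifu at 22 °C. Its gi means differed little between temperatures, yet unheated replicates 1 and 2 were below every heated Chiifu library and unheated replicate 3 was above them.

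In 8 of the 47 genes, or 17.0%, libraries of 1 group lay on both sides of a detection gap, with 1 under 0.1 CPM and another at 1 CPM or more. The share was 3.28% of the 518 and 4.46% of tested genes, and 5 of the 8 genes were on chromosome A03, as were 13 of the 47. The share of A03 among all tested genes with such a gap was not computed, so the 5 have no background. BraA03g043730.3.5C had 0, 9.66 and 23.2 CPM in gi at 37 °C, 11.3, 0 and 20.0 CPM in gi at 22 °C, 0, 0 and 0 CPM in Chiifu at 37 °C and 4.76, 12.6 and 9.43 CPM in Chiifu at 22 °C. Against the floor its fall in Chiifu was at least 97.2-fold. BraA03g044610.3.5C had 0.0257, 5.32 and 11.1 CPM in gi at 37 °C, 6.63, 0.137 and 9.87 CPM in gi at 22 °C, 0.0290, 0.0614 and 0.161 CPM in Chiifu at 37 °C and 8.67, 11.5 and 10.7 CPM in Chiifu at 22 °C. In both genes heated replicate 1 and unheated replicate 2 of gi were at or near 0, as heated Chiifu was, while the other 4 gi libraries had over 5 CPM.

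BraA03g043330.3.5C had the same low gi libraries. It had 0.206, 9.09 and 20.4 CPM in gi at 37 °C, 16.7, 0.154 and 27.2 CPM in gi at 22 °C, 9.20, 0.184 and 0.0964 CPM in Chiifu at 37 °C and 14.4, 28.4 and 30.6 CPM in Chiifu at 22 °C. Here a heated Chiifu library was also high. BraA09g026600.3.5C, picked after its values were seen, had 4.11, 3.68 and 0 CPM in gi at 37 °C, 0, 0 and 6.14 CPM in gi at 22 °C, 2.90, 2.18 and 0 CPM in Chiifu at 37 °C and 7.29, 5.60 and 10.9 CPM in Chiifu at 22 °C. For such genes a group mean averages libraries with and without the transcript.

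By their IDs, which carry the chromosome, 13 of the 47 genes, or 27.7%, were on A03, against 14.7% of tested genes and 15.9% of the 565 lowered in Chiifu. Chromosome A09 held 8, A06 held 6, A02 and A05 held 5 each, and A08 held none, with 7.68% of tested genes. Of the 38 genes of the exchanged rule, 4 were on A03. On A03, 8 of the 13 lay from BraA03g043330.3.5C to BraA03g046710.3.5C, a run of 224 tested genes that ends 173 tested genes before the stretch left out. In that run 15 genes met the Chiifu part of the rule, and the other 7 fell below the gi bound. Its ends were set by the genes found, so the share carries no test.

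In the same run, 14 genes, or 6.25%, had libraries of 1 group on both sides of the detection gap, against 4.46% of tested genes. Of these 14, replicate 1 of gi at 37 °C was under 0.1 CPM for 11, and replicate 2 of gi at 22 °C for 6. Replicates 2 and 3 of gi at 37 °C and replicate 3 of gi at 22 °C were under it for 0. Heated Chiifu libraries were under it for 8, 6 and 5. Replicate 1 of gi at 22 °C was under it for 2, and unheated Chiifu libraries for 3, 2 and 2. The 14 were picked for such gaps, and these counts have no background beside them, so they describe the 14 alone.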

How the data were processed

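Strand-specific mRNA libraries of whole seedlings were sequenced on an Illumina instrument, as the labels' protocols state. The raw counts per gene were deposited by the authors, 1 file a library. The submitters' processing notes list HTSeq, TopHat2, FastQC and edgeR; the genome build and strand setting are not given in the sources used here. Rows that name no gene were left out: the row for reads not aligned held on average 1.03 times as many reads as all the rest of the file, and the other 4 such rows held 9.25% of aligned reads.

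Counts were tested with edgeR 4.0.16 (R 4.3.3): filterByExpr by group, TMM factors from the genes kept, 1 robust quasi-likelihood fit with 4 group means, and Benjamini-Hochberg adjustment over 28846 genes. DESeq2 1.42.0, other scalings and bounds, a replicate block and leaving out each library were alternatives. The fit was tried on simulated counts with the same spread for all genes and no outlying libraries. Changes were put into heated Chiifu alone and only the Chiifu heat contrast was checked, so the gi and interaction contrasts were not covered. Fold ratios against values under 3 counts per library used that floor, and genes under it in both groups got none.

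The genes and lists were chosen with earlier results of these data known. Named genes were the extremes of the Chiifu ratio, level, gi heat ratio, gi over Chiifu ratios and interaction p, and those at the bounds; genes picked later are marked or stand in short lists of calls. Deviations of same-numbered gi and Chiifu libraries correlated by 0.158 to 0.271 at 22 °C and 0.115 to 0.365 at 37 °C. Those of different-numbered libraries correlated by -0.216 to 0.101 at 22 °C and -0.323 to 0.216 at 37 °C. The ranges overlapped at 37 °C, so a pairing of the genotypes by number is not settled. The main fit used no pairing, and the replicate block was an alternative. That block tied same-numbered libraries across the genotypes and also across the temperatures, and a block within each temperature was not fitted. Between temperatures, same-numbered libraries of a genotype correlated by -0.286 to 0.210.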

Additional observations from a re-analysis of the deposited data

Results flagged for a closer look

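The heat change differed between gi and Chiifu by the edgeR interaction test, adjusted over all genes tested, for BraA03g046710.3.5C (log2 6.31, adjusted p = 0.00234), BraA02g018030.3.5C (log2 3.00, adjusted p = 0.023) and BraA09g040330.3.5C (log2 3.08, adjusted p = 0.0498), with a positive value meaning a smaller fall or a rise in gi. With the replicate block the adjusted p-values were 0.0114, 0.0832 and 0.14 in the same order. With DESeq2 size factors in place of TMM, the edgeR adjusted p of BraA09g040330.3.5C was 0.0568. For BraA09g066320.3.5C all 3 gi libraries were higher in heat and all 3 Chiifu libraries lower, with an interaction of 2.91 and an adjusted p of 0.168, so the difference did not pass the test. The genes were chosen by their values in these libraries, so none of these p-values is independent of the choice.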

How the results depend on the processing

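The number of genes meeting the rule, 47, depended on the scaling and the bounds. Total counts in place of TMM gave 141, of which 15 were shared with the 47; that scaling moved the median log2 heat change of all genes to -0.68 in gi and -1.05 in Chiifu, and the 47 genes lay -0.04 and -2.20 from it, against -0.05 and -2.27 with TMM. A gi bound of 0.5 gave 90 genes and a bound of 1 gave 16. A Chiifu bound of 8-fold gave 10 and of 3-fold 96. Medians in place of means gave 54, of which 25 were shared, DESeq2 size factors 50 and TMM from all gene rows, added after seeing the data, 51. Leaving out 1 library gave 30 to 77 genes: 30 without gi replicate 3 at 37 °C, 76 without gi replicate 3 at 22 °C, 74 without Chiifu replicate 3 at 37 °C and 77 without Chiifu replicate 2 at 22 °C. With a Chiifu library left out, the criterion of no overlap compares fewer libraries and is easier to meet. Without Chiifu replicate 1 at 22 °C, 31 of the 47 remained. In all 12 runs 5 remained: BraA02g047200.3.5C, BraA06g007500.3.5C, BraA06g012220.3.5C, BraA09g009920.3.5C and BraA09g040330.3.5C.

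Of the 47 genes, 38 were called lower in heated Chiifu, and 20 to 40 with 1 library left out: 20 without Chiifu replicate 2 at 37 °C, 23 without replicate 1 at 37 °C and 23 without replicate 1 at 22 °C. Total counts called 3 genes lower in heated gi, against 0 with TMM and 0 in each run with 1 library left out. A fit of the gi groups alone called 1 higher, as did the fit without gi replicate 3 at 22 °C, for a range of 0 to 1. DESeq2 called 14 interactions, 14 genes higher in gi at 37 °C and 6 lower at 22 °C, against 3, 8 and 1 by edgeR. No share of all tested genes was computed for the alternative fits, so their counts stand without a background. With the replicate block the interactions were 1 and the genes higher in gi at 37 °C were 5; it changed no other count by over 1.5 times. With 1 library left out, interactions numbered 1 to 3, genes higher in gi at 37 °C 3 to 8 and genes lower in gi at 22 °C 1 to 2, the last without Chiifu replicate 1. The interactions were 1 without any single gi library or without replicate 1 or 3 of heated Chiifu. Of 480 recomputed values of 13 named genes, 425 kept their direction and side of the threshold, 44 lost the call, 11 gained it and 0 changed direction.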

Other observations

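Not every gene followed the library order described above. Replicate 1 was the highest gi library at 37 °C for 9 of the 47 genes, against 115 of the 518 and 45.6% of tested genes. BraA05g000460.3.5C, picked after its values were seen, had 45.7, 22.2 and 20.2 CPM in gi at 37 °C, 16.7, 47.2 and 33.3 CPM in gi at 22 °C, 6.73, 5.47 and 14.4 CPM in Chiifu at 37 °C and 28.7, 50.7 and 36.2 CPM in Chiifu at 22 °C. In both genotypes replicate 1 was the lowest unheated library of this gene. BraA03g036220.3.5C, picked in the same way, had 23.4, 15.7 and 11.6 CPM in gi at 37 °C, 15.1, 22.8 and 10.8 CPM in gi at 22 °C, 8.53, 8.41 and 9.93 CPM in Chiifu at 37 °C and 18.3, 41.9 and 48.6 CPM in Chiifu at 22 °C. All 3 heated gi libraries were above all 3 heated Chiifu libraries, by a log2 difference of 0.92 ± 0.39 (SE) that edgeR did not call.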
